A study of Mus musculus with 20 samples.

Results

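Organic ion and drug transporters were taken as every gene of the count table whose symbol begins with Slc22a, Slco, Slc47a or Abcc followed by a digit. The rule used gene names only and found 53 of the 24421 genes in the table. By known substrate and direction of transport they were 13 organic anion transporters of the Slc22 family, 15 organic anion transporting polypeptides (Slco genes), 10 carriers of organic cations and zwitterions (such as Slc22a2, Slc22a4, Slc22a5 and Slc47a1), 8 ABC efflux pumps, 4 other Slc22 genes, the 2 sulfonylurea receptor genes Abcc8 and Abcc9, which are regulatory subunits of potassium channels and not pumps, and the pseudogene Slc22a13b-ps. Slco6b1, counted among the Slco genes, is also annotated as a pseudogene. The pathway works across the proximal tubule cell. Slc22 carriers on the blood side take up anions such as urate, drugs and uremic toxins in exchange for dicarboxylates, or cations along the membrane potential, and apical carriers and ATP-driven pumps release them into the urine or reabsorb them.

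Whole-kidney RNA was sequenced from mice 5 and 10 days after induced loss of Fh1, which encodes fumarate hydratase, a mitochondrial enzyme of the tricarboxylic acid cycle. Fh1-/- mice carried floxed Fh1 alleles and a tamoxifen-activated Cre recombinase (CreERT2) in the Rosa26 locus, and Fh1+/+ mice carried the same recombinase with wild-type Fh1. Both genotypes received 3 injections of 2 mg tamoxifen at 12 weeks of age and had a mixed C57BL/6 and 129/SvJ background, so Cre and tamoxifen were shared by all 4 groups of 5 libraries: Fh1-/- at day 10, Fh1+/+ at day 10, Fh1-/- at day 5 and Fh1+/+ at day 5. The recombinase is active in all cell types, so Fh1 loss was not limited to the tubule. In whole tissue, fewer cells of a type and less RNA per cell cannot be told apart.

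Libraries held between 16654829 and 25001294 reads in genes, and values are given as CPM (read counts scaled to library size) with libraries scaled by the trimmed mean of M values. Fh1 itself had 351, 247.6, 365.2, 412.9 and 359.5 CPM in the Fh1-/- libraries of day 10, against 221.8 to 259 CPM in the Fh1+/+ libraries of day 10, and between 198.7 and 242.5 CPM in Fh1-/- libraries, against 215.4 to 266.1 CPM in Fh1+/+ libraries, at day 5. The count covers the whole gene, including exons outside the floxed part, and the deletion cannot be read from it. 2 libraries, Fh1-/- day 10 replicates 1 and 3, stood apart from the other 18 on the first principal component (125 and 128, against -31.3 to 30.3; 42.8% of the variance). Transcripts of 4 Y-linked genes summed to 97.1 to 138 CPM in 12 libraries and to 0.307 to 1.03 CPM in 8, which lacked them: 3 of 5 Fh1-/- and 2 of 5 Fh1+/+ libraries at day 10, and 2 of 5 Fh1-/- and 1 of 5 Fh1+/+ libraries at day 5. Fh1-/- day 10 replicates 1 and 3 were both among those that lacked them, so at day 10 the Y-linked level and the libraries that stood apart are partly mixed. The study used male and female mice and the labels do not give sex. The labels number the replicates without naming separate animals, and the tests therefore cover the spread among these libraries only.

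Most of the transporters were expressed in these kidneys. 37 of the 53 had a mean of at least 1 CPM over the 20 libraries, 15 of at least 100 CPM, and 11 had reads but a mean of at most 0.646 CPM. No read was found for Slco6b1, Slco6c1, Slco6d1, Slc22a16 and Slc22a20 in 379789971 reads, which allows up to 0.0079 CPM for each (3 counts; counting error only). Per kilobase of exon (RPKM, CPM divided by the merged exon length), the urate carrier Slc22a12 (Urat1) had the highest level, 485 ± 160 RPKM in Fh1-/- and 731 ± 264 RPKM in Fh1+/+ kidneys at day 10 (SD, n = 5 each). The drug and toxin uptake carriers Slc22a6 (Oat1) and Slc22a8 (Oat3) had 173 ± 30.8 and 147 ± 68.8 RPKM in Fh1-/- kidneys, against 233 ± 103 and 234 ± 71.2 RPKM in Fh1+/+ kidneys. Efflux pumps were lower per length, with 26.4 ± 5.56 RPKM in Fh1-/- and 25.2 ± 7.68 RPKM in Fh1+/+ kidneys for the apical pump Abcc2 (Mrp2). In Fh1+/+ kidneys the levels of Slc22a8 and Slc22a6 did not differ beyond their SDs.

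**Figure D1:**
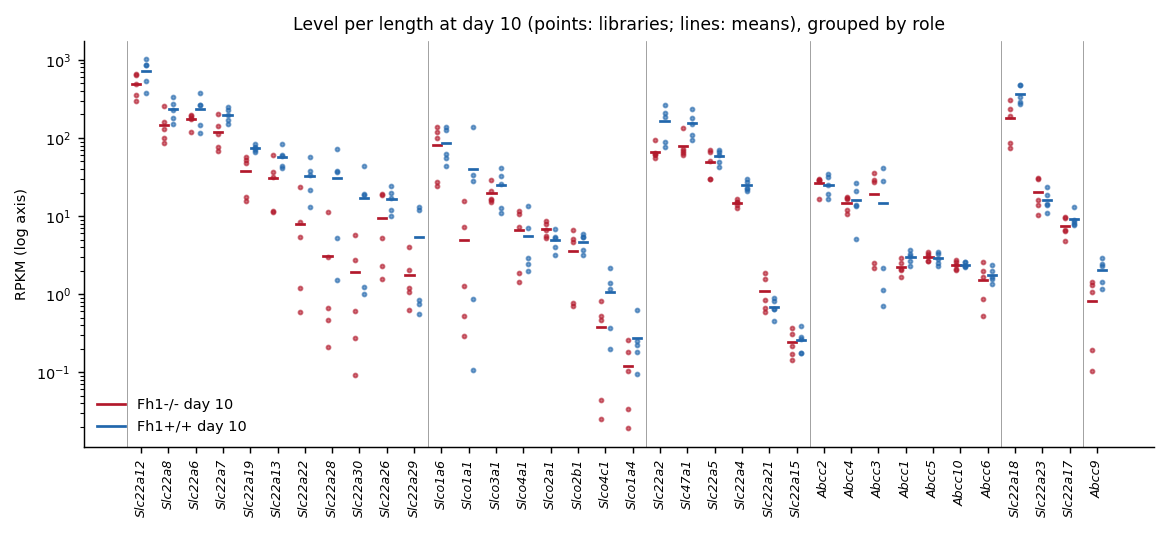
Level per length (RPKM, log axis) of members tested at day 10, grouped by role, in Fh1-/- (left of each pair) and Fh1+/+ libraries; points are libraries and lines are means. Slc22a12 had the highest means, 485 RPKM in Fh1-/- and 731 RPKM in Fh1+/+ kidneys, and the efflux pumps lay lower.

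4 promoters are shown because the results turn on their genes: the chromosome 19 neighbours Slc22a28, Slc22a30 and Slc22a29, organic anion transporter genes of which the first and second moved one way and the last the other way with the Y-linked transcripts, and Slc22a4, which had the lowest p of all members at day 10. Each sequence is the 250 bases before the annotated start, 5′ to 3′ on the gene's strand, from RefSeq on GRCm38.p6; all 4 genes lie on the minus strand. The windows are chr19:8131983-8132232 for Slc22a28, chr19:8405106-8405355 for Slc22a30, chr19:8218901-8219150 for Slc22a29 and chr11:54028105-54028354 for Slc22a4. In Slc22a28 and Slc22a30, capitals mark the bases that are not identical in the alignment of these 2 with each other; in Slc22a29 they mark bases not identical in the alignment with Slc22a28; in Slc22a4 they mark the letters GCGTG on either strand, the core of the xenobiotic response element.
Slc22a28: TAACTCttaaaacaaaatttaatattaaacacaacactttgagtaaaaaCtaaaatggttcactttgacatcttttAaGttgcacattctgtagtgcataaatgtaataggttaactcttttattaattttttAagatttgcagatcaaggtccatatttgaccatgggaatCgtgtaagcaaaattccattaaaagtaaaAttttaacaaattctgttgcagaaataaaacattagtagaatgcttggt
Slc22a30: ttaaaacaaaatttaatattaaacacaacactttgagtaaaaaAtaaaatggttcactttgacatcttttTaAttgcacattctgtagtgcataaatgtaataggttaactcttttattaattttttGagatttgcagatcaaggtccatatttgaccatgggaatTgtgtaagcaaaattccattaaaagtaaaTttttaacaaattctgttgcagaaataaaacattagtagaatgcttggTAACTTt
Slc22a29: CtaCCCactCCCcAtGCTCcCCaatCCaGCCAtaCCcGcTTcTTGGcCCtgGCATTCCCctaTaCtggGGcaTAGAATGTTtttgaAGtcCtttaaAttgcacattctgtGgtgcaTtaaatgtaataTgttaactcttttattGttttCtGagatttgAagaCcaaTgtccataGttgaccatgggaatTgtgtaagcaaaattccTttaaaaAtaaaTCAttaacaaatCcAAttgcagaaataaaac
Slc22a4: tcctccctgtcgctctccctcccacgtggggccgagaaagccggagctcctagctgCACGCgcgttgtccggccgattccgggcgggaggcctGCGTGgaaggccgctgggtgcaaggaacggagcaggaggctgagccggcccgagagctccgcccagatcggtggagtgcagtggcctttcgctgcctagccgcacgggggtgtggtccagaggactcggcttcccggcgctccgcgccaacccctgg
Slc22a28 and Slc22a30 were identical at 238 of 256 aligned positions (93.0%), whereas Slc22a29 shared 65.1% with Slc22a28 and 63.6% with Slc22a30. The Slc22a4 window was 71.2% G and C with 26 CG pairs, and the Slc22a28 window 26.8% with 1 CG pair. Motifs were searched on both strands and counted separately, so that matches of different motifs may overlap. Over windows of 250 bases before to 50 after each start, GCGTG stood in 9 of 49 promoters of the 42 members matched in the RefSeq table (18.4%), against 32.4% of all 32851 promoters. The letters TGACNNNGC, the core of the antioxidant response element, stood in 10 (20.4%), against 12.4% of all. GTTAAT, part of the site of the proximal tubule regulator HNF1, stood in 4 (8.16%, Slc22a6, Slc22a8, Slc22a29 and Slco1b2), against 7.1% of all, and CAAAGTCCA, a site of HNF4A, in 0, against 0.475% of all.

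At day 10 the first comparison asked how the transporters stood in Fh1-/- against Fh1+/+ kidneys. Values of most were lower in Fh1-/- kidneys, and the spread was wide: of 37 members with enough reads to be tested, 29 had a log2 fold change below 0 and 8 above 0, with a median of -0.44, against -0.001 over all 14360 genes tested (16 members had too few reads). With libraries scaled by their totals alone the split was 33 below and 4 above 0 with a median of -0.60, against -0.168 over all genes. By edgeR's quasi-likelihood test with Benjamini-Hochberg adjustment, 0 members passed (adjusted p under 0.01 and an absolute log2 fold change over 0.58), against 0.0557% of all genes tested. At an unadjusted p under 0.05, 10 members were lower (27.0% of those tested, against 11.9% of all genes) and 0 were higher (against 15.1%). DESeq2 at the same thresholds called 2 members, Slc22a4 and Slc22a2, both lower, against 5.54% of all genes, and edgeR with the Y-linked level as a covariate called 0, against 0.139%. Counting libraries, 2 members, Slc22a19 and Slc22a4, were lower in every Fh1-/- than in every Fh1+/+ library (5.41% of those tested, against 3.68% of all genes) and 0 were higher in every library (against 3.96%).

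**Figure D2:**
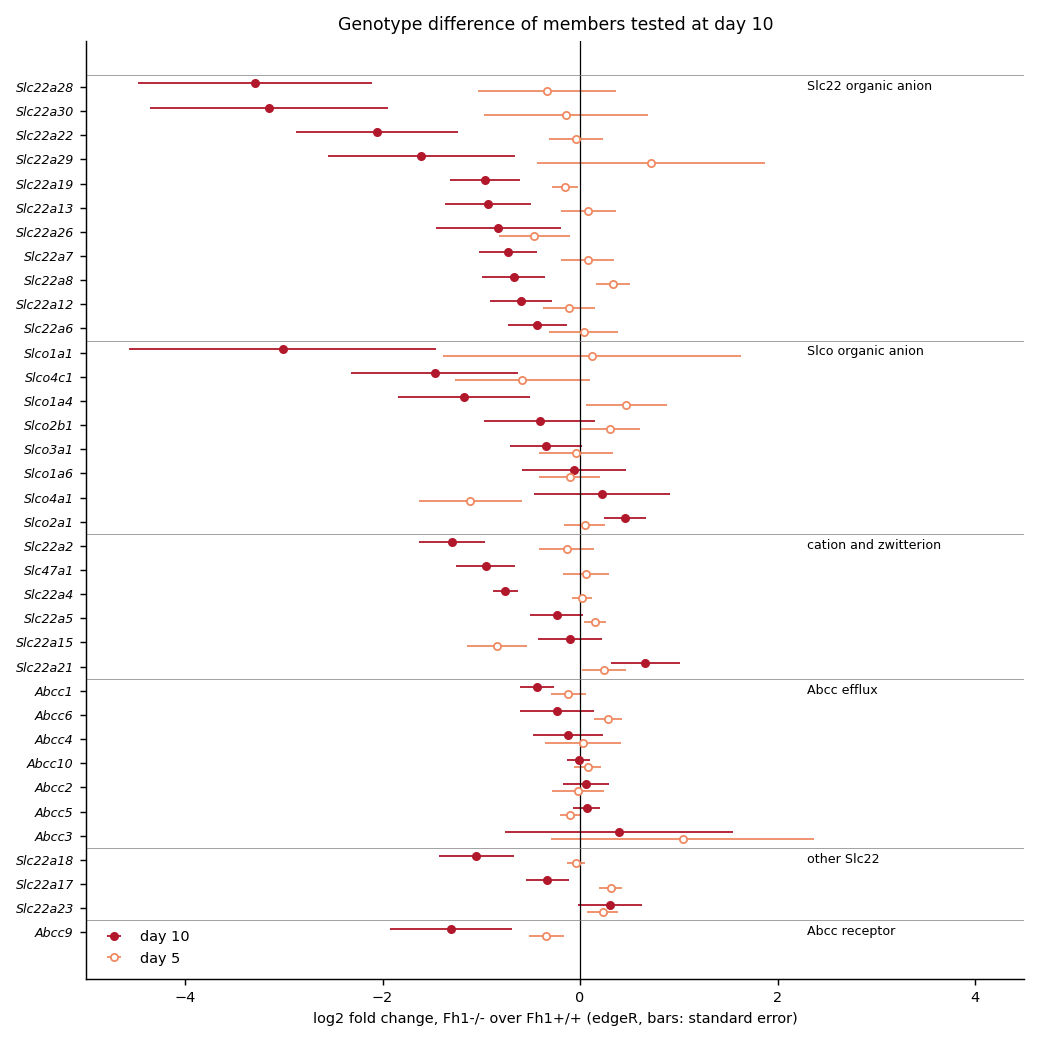
Log2 fold change of Fh1-/- over Fh1+/+ for members tested at day 10 (filled) and the same members at day 5 (open), with standard errors from edgeR, grouped by role. All 11 Slc22 organic anion transporters lay below 0 at day 10, and the day 5 values of members lay on both sides of 0.

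The classes differed in where their values lay. All 11 tested Slc22 organic anion transporters were below 0 (median -0.93), as were 6 of 8 Slco genes (median -0.38), 5 of 7 cation and zwitterion carriers (median -0.24) and 4 of 7 efflux pumps (median -0.01). The shared sign of the 11 did not hold within sets of libraries alike in Y-linked transcripts. Log2 ratios of mean CPM were above 0 for Slc22a8 (0.05) and Slc22a29 (0.89) among libraries with them, and for Slc22a6 (0.33) among those without. Markers of tubule segments, injury and leukocytes differed beside them, and their part in these values was not tested. Summed levels of 10 proximal tubule markers were 11212 to 22109 CPM in Fh1-/- kidneys, against 18749 to 24140 CPM in Fh1+/+ kidneys, and those of 5 markers of the S3 segment, its last stretch, were 999 to 2677 CPM, against 2420 to 5870 CPM. The 5 S3 markers had unlike log2 fold changes, from -3.05 (Slc7a13) to 0.45 (Slc5a1), and none passed by edgeR. DESeq2 called only Acy3 of these (log2 fold change -1.80, adjusted p = 0.00826). Levels of 4 of the 5 S3 markers also went with the Y-linked transcripts (edgeR slope, adjusted p under 0.01): Slc7a13, Cyp7b1 and Acy3 upward and Aadat downward. The 6 markers of injured tubule summed to 2714 to 133550 CPM, against 832 to 2041 CPM, with the highest sums in replicates 1 and 3. Most of the sum in these libraries was 1 gene, Spp1, with 10.3% and 9.5% of all their reads. The log2 fold changes of the 6 markers ran from 1.21 (Vcam1) to 8.09 (Lcn2), and none passed by edgeR. DESeq2 at the same thresholds called Spp1, Lcn2, Sox9 and Krt20 (adjusted p = 5.2e-09, 2.75e-07, 7.56e-06 and 2.7e-05), against 5.54% of all genes. It did not call Havcr1 (adjusted p = 0.0187) or Vcam1 (adjusted p = 0.121). The 7 leukocyte markers summed to 33.0 to 125 CPM, against 139 to 163 CPM. None of these markers was at 0 in all libraries of a group.

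Among the cation carriers, Slc22a4, Slc22a2 and Slc47a1 had lower values in Fh1-/- kidneys. Slc22a4 (Octn1, a carrier of the antioxidant ergothioneine; chr11:53983123-54028090, minus strand, GRCm38) had 35.3, 42.2, 38.8, 32.0 and 38.7 CPM in the 5 Fh1-/- libraries of day 10, against 70.0, 55.9, 58.7, 53.7 and 76.5 CPM in the 5 Fh1+/+ libraries. The groups did not overlap, and replicates 1 and 3 lay within the range of the other Fh1-/- libraries. Its log2 fold change was -0.76 (SE 0.125), with an adjusted p of 0.0259 by edgeR and 6.06e-06 by DESeq2. It was -0.74 with the Y-linked level as a covariate (adjusted p = 0.0227) and -0.73 without replicates 1 and 3 (adjusted p = 0.0649, edgeR, an alternative chosen after seeing the data), and of the edgeR fits that left out 1 library, it passed only in that without Fh1-/- replicate 2 (-0.81, adjusted p = 0.00928).

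Slc22a2 (Oct2, the basolateral carrier that brings cationic drugs and creatinine into the tubule cell; chr17:12584132-12628488, plus strand) had 158, 232, 149, 154 and 137 CPM in Fh1-/- libraries of day 10, against 518, 221, 189, 455 and 653 CPM in Fh1+/+ libraries. All Fh1-/- values but that of replicate 2 lay under every Fh1+/+ value, and the 2 low Fh1+/+ libraries, replicates 2 and 3, were those without Y-linked transcripts. The log2 fold change was -1.30 (SE 0.333), with an adjusted p of 0.0628 by edgeR and 0.00335 by DESeq2. Slc47a1 (Mate1, the apical exchanger that passes cations on into the urine; chr11:61343401-61378345, minus strand) had 216, 451, 202, 229 and 245 CPM, against 609, 319, 374, 508 and 787 CPM. Again replicate 2 alone overlapped the Fh1+/+ range, and the log2 fold change was -0.96 (SE 0.296; adjusted p = 0.0895 by edgeR and 0.0198 by DESeq2). Without replicates 1 and 3 the log2 fold changes were -1.21 for Slc22a2 (adjusted p = 0.176, edgeR) and -0.74 for Slc47a1 (adjusted p = 0.271). The carnitine carrier Slc22a5 (Octn2) had 92.2 to 216 CPM, against 130 to 217 CPM, with a log2 fold change of -0.24. Slc22a5 shared 26.3% of its exonic stretches of 50 bases with other genes, and Slc22a4 2.64%, so reads of Slc22a5 are less certain.

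**Figure D3:**
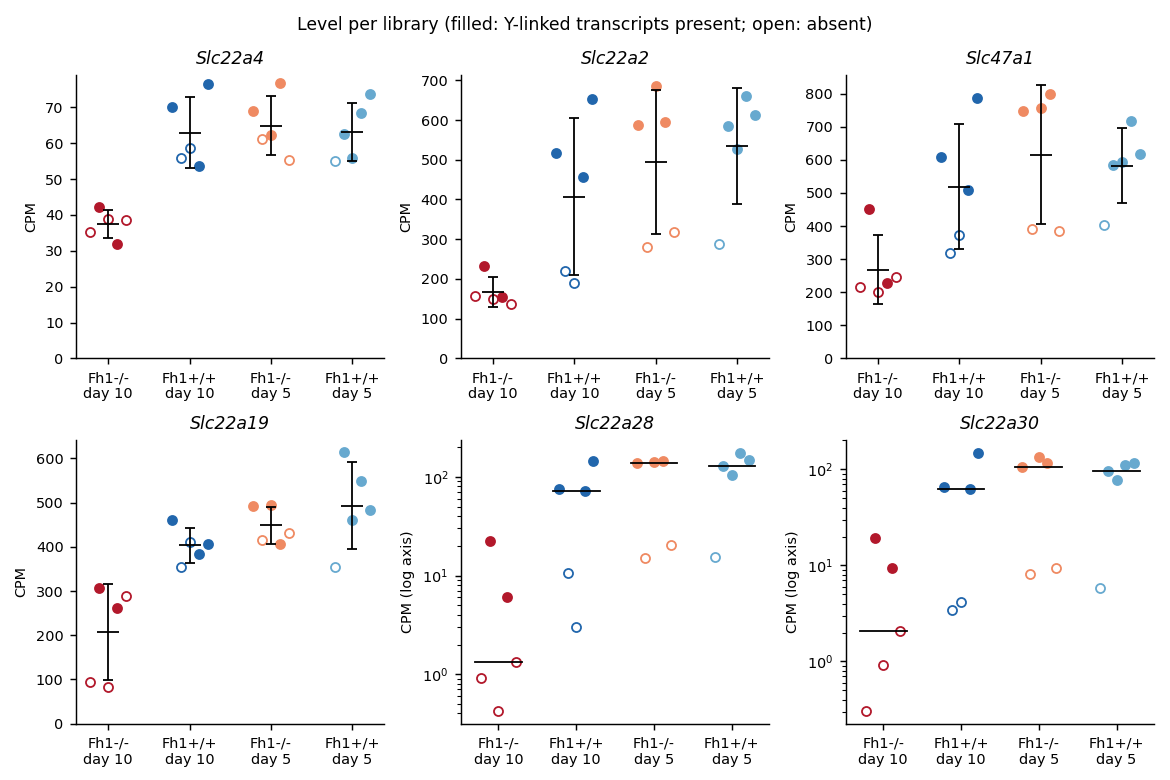
CPM of 6 members in each library by genotype and day (log axis for Slc22a28 and Slc22a30); filled points had Y-linked transcripts and open points did not. Bars on linear axes are the mean and SD of 5 libraries and lines on log axes are medians; the 5 Fh1-/- libraries of day 10 lay between 32.0 and 42.2 CPM for Slc22a4, under all 15 others.

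Among the Slc22 anion transporters, the largest differences were those of Slc22a28 and Slc22a30. Slc22a28 (chr19:8062209-8131982, minus strand) had 0.921, 22.5, 0.426, 6.00 and 1.34 CPM in Fh1-/- libraries of day 10, against 74.9, 10.5, 3.04, 72.4 and 145 CPM in Fh1+/+ libraries. Its neighbour Slc22a30 (chr19:8335371-8405111, minus strand) had 0.307, 19.4, 0.923, 9.30 and 2.06 CPM, against 65.3, 3.41, 4.20, 62.9 and 149 CPM. Both genes had their highest Fh1-/- values in replicates 2 and 4 and their lowest Fh1+/+ values in replicates 2 and 3, so the groups overlapped when libraries with and without Y-linked transcripts were mixed. The log2 fold changes were -3.29 for Slc22a28 (SE 1.19; adjusted p = 0.121 by edgeR, 0.0381 by DESeq2) and -3.15 for Slc22a30 (SE 1.21; adjusted p = 0.135 and 0.0539), and with the Y-linked level as a covariate -2.97 (adjusted p = 0.0201, edgeR) and -2.48 (adjusted p = 0.0226). Slc22a28 shared 53.3% of its exonic 50-base stretches with Slc22a30, so the levels of both are less certain.

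Slc22a19 (Oat5, a carrier of anions such as sulfated steroids and ochratoxin A) was lower in every Fh1-/- library, with 94.3, 307, 84.0, 261 and 288 CPM, against 460, 355, 411, 383 and 406 CPM in Fh1+/+ libraries. Replicates 1 and 3 were the lowest, and the log2 fold change was -0.97 (SE 0.355; adjusted p = 0.124, edgeR) with them and -0.48 without them. Slc22a22 (Oat-PG, a prostaglandin carrier) had 2.88, 57.7, 1.42, 20.3 and 13.2 CPM, against 81.6, 52.2, 32.3, 90.8 and 141 CPM, with a log2 fold change of -2.06 (SE 0.822; adjusted p = 0.147) that was -1.37 without replicates 1 and 3. Slc22a7 (Oat2) had 142, 235, 162, 303 and 428 CPM, against 356, 413, 476, 319 and 531 CPM, with a log2 fold change of -0.73 (SE 0.293; adjusted p = 0.149) that was -0.37 without replicates 1 and 3, its 2 lowest libraries. The most abundant carriers overlapped. The urate reabsorber Slc22a12 had 680, 1478, 795, 1432 and 1105 CPM, against 1954, 864, 1207, 1936 and 2313 CPM (log2 fold change -0.60, adjusted p = 0.233), and the uptake carriers Slc22a6 and Slc22a8 had log2 fold changes of -0.43 (adjusted p = 0.353) and -0.67 (adjusted p = 0.198). Slc22a18, grouped with the other Slc22 genes, had 128, 518, 148, 400 and 325 CPM, against 815, 486, 462, 572 and 804 CPM, with a log2 fold change of -1.05 (SE 0.38; adjusted p = 0.121) that was -0.58 without replicates 1 and 3.

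In the Slco family, Slco1a1 (Oatp1a1, a carrier of bile salts and steroid conjugates) had the largest difference, with 1.53, 81.7, 2.77, 38.3 and 6.66 CPM in Fh1-/- libraries, against 175, 0.553, 4.53, 149 and 727 CPM in Fh1+/+ libraries. Both genotypes had a high and a low set of libraries, and its log2 fold change of -3.01 (SE 1.56; adjusted p = 0.231, edgeR) was -1.41 with the Y-linked level as a covariate. Slco2a1, the prostaglandin transporter, had 71.2 to 115 CPM in Fh1-/- libraries, against 43.2 to 93.2 CPM in Fh1+/+ libraries, the member nearest to passing among those above 0 (log2 fold change 0.45, adjusted p = 0.193). The efflux pumps had fold changes nearer to 0: Abcc2 had a value of 0.06 on the log2 scale (adjusted p = 0.894), the apical pump Abcc4 (Mrp4) of -0.12 (adjusted p = 0.842), the basolateral pump Abcc3 (Mrp3) of 0.40 (SE 1.16; adjusted p = 0.844) and Abcc5 (Mrp5) of 0.07. Abcc1 (Mrp1, which exports glutathione conjugates) had 30.3, 37.3, 25.3, 31.3 and 43.7 CPM, against 40.4, 56.1, 49.8, 46.5 and 34.1 CPM, overlapping ranges with a log2 fold change of -0.44 (SE 0.173; adjusted p = 0.144), which was -0.27 without Fh1-/- replicates 1 and 3. Abcc9, the channel subunit, had 0.852 to 12.0 CPM, against 9.60 to 24.2 CPM.

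The remaining members at day 10 were given by their ranges. Slc22a13, a carrier of nicotinate and urate in human kidney, had 22.8 to 119 CPM in Fh1-/- libraries, against 83.2 to 168 CPM in Fh1+/+ libraries, with the 2 lowest values in replicates 1 and 3 (log2 fold change -0.93, adjusted p = 0.194, edgeR). Slc22a26 had 4.62 to 56.1 CPM, against 29.9 to 72.0 CPM, and Slc22a29 had 1.43 to 9.07 CPM, against 1.27 to 29.9 CPM. Slco1a6 had 92.2 to 530 CPM, against 167 to 523 CPM, and its log2 fold change was -0.06. Slco2b1 had 4.17 to 39.4 CPM, against 18.9 to 35.2 CPM, again lowest in replicates 1 and 3. Slco4a1, by contrast, had its 2 highest Fh1-/- values, 51.6 and 55.4 CPM, in these libraries, and ranged from 6.77 to 55.4 CPM, against 9.60 to 65.1 CPM. Slc22a21, a close relative of the carnitine carrier Slc22a5 with which it shares sequence, had the largest log2 fold change above 0, 0.66 (SE 0.354; adjusted p = 0.245), with 2.15 to 6.75 CPM, against 1.65 to 3.23 CPM. Slc22a23 had 66.4 to 194 CPM, against 70.3 to 151 CPM, highest in replicates 1 and 3. Abcc6 (Mrp6, whose activity releases ATP from cells) had 3.01 to 14.9 CPM, against 7.69 to 13.4 CPM, and Abcc10 14.1 to 18.8 CPM, against 15.3 to 17.6 CPM.

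Because the groups held unlike numbers of libraries with Y-linked transcripts, the genotypes were also set side by side within each set. Among libraries with the transcripts (2 Fh1-/- and 3 Fh1+/+ libraries of day 10), 16 of the 37 tested members were lower in every Fh1-/- library (43.2%, against 21.5% of all genes) and 1 was higher (against 19.5%). Among libraries without them (3 Fh1-/- and 2 Fh1+/+ libraries), 14 were lower (37.8%, against 22.8%) and 3 were higher (also against 22.8%). These 3 Fh1-/- libraries were replicates 1, 3 and 5, so this set holds both libraries that stood apart on the first principal component. Splitting by the Y-linked transcripts therefore also splits by these libraries, and the parts of each cannot be told apart. 8 members were lower in both sets (21.6%, against 7.31% of all genes): Slc22a18, Slc47a1, Slc22a2, Slc22a19, Slc22a22, Slc22a28, Slc22a4 and Slc22a30. Slc22a2 had 154 and 232 CPM in the 2 Fh1-/- libraries with the transcripts, against 455 to 653 CPM, and 137 to 158 CPM in the 3 without them, against 189 and 221 CPM. With 2 and 3 libraries a side no test was run within a set.

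Genes that work with these carriers, from lists of known partners, had lower values in part. Of 9 partners of anion exchange, 6 were below 0 at day 10 (median -0.36), and the apical anion transporter Slc17a3 had 114, 240, 103, 185 and 208 CPM in Fh1-/- libraries, against 390, 331, 461, 619 and 943 CPM in Fh1+/+ libraries. These did not overlap (log2 fold change -1.70, adjusted p = 0.0376 by edgeR and 4.71e-05 by DESeq2). Slc17a3 also went upward with the Y-linked transcripts (edgeR slope, adjusted p = 0.000995). With their level as a covariate its log2 fold change was -1.58 (adjusted p = 0.0238, edgeR). Pdzk1, a scaffold protein that binds the tails of apical transporters, had 259, 822, 268, 561 and 658 CPM, against 959, 993, 1000, 1027 and 1200 CPM (log2 fold change -1.02, adjusted p = 0.0867). Among 12 tested other drug transporters 9 were below 0 and 0 passed, and among 17 regulators of these genes 8 were above 0 and 0 passed. 6 of 9 tested targets of the antioxidant regulator NRF2 were above 0 (median 0.99), and DESeq2 called 2 of them (against 5.54% of all genes).

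At day 5 the same comparison gave a median near 0. Log2 fold changes of single members ran from -1.11 (Slco4a1, SE 0.518) to 1.04 (Abcc3, SE 1.33). Some were uncertain, with an SE of 1.51 for Slco1a1. By edgeR 0 of 39 tested members passed (against 0.0347% of all genes), 0 by DESeq2, and 2 had an unadjusted p under 0.05 (against 4.78%). The median log2 fold change was 0.03, with 21 members above and 18 below 0, and no member's groups were apart. Slc22a4 had 69.0, 61.1, 62.4, 76.9 and 55.2 CPM in Fh1-/- libraries, against 55.0, 62.7, 55.9, 68.5 and 73.8 CPM in Fh1+/+ libraries, the same range. Slc22a2 had 587.5, 281, 687, 595 and 318 CPM, against 289, 586, 527, 661 and 614 CPM, and Slc47a1 had 747, 390, 758, 799 and 385 CPM, against 402, 583, 593, 717 and 618 CPM. In both the low libraries were those without Y-linked transcripts. The 2 members with an unadjusted p under 0.05 were Slc22a15, a carrier of zwitterions in human cells, whose log2 fold change was -0.84 (adjusted p = 0.916, edgeR), and Slc22a17, a receptor for lipocalin 2, with 0.31 (adjusted p = 0.945). Slc22a15 had 1.95, 1.75, 1.69, 1.82 and 2.44 CPM, against 2.69, 3.63, 6.20, 1.98 and 2.57 CPM, so the groups overlapped by 1 library on each side. Slc22a17 had 46.0, 49.6, 36.8, 44.0 and 53.6 CPM, against 42.7, 31.2, 32.2, 40.4 and 37.4 CPM.

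The difference between the days was tested as an interaction of genotype and day. 30 of 41 tested members had an interaction below 0, a more negative genotype difference at day 10 than at day 5 (median -0.63, against -0.01 over all genes), and all 12 Slc22 anion transporters did. 0 members passed by edgeR (against 0.0335% of all genes), and at an unadjusted p under 0.05, 10 members were below 0 (24.4% of those tested, against 8.4% of all genes) and 0 above 0 (against 11.8%). DESeq2 called 1 (against 1.81%), Slc22a4, whose interaction was -0.79 (adjusted p = 0.0357 by edgeR and 0.000981 by DESeq2). With the Y-linked level as a covariate edgeR called 3 (against 0.629%): Slc22a4 (-0.79, adjusted p = 0.00928), Slc22a28 (-3.12, adjusted p = 0.00468) and Slc22a30 (-2.89, adjusted p = 0.00287).

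Within Fh1-/- kidneys, day 10 was set against day 5. By edgeR 1 of 38 tested members passed (against 0.576% of all genes): Slc22a4 fell by 0.80 on the log2 scale (SE 0.113; adjusted p = 0.00853). That call was lost in 9 of 10 fits that left out 1 library (adjusted p between 0.0152 and 0.0327), all but the one without day 10 replicate 2, and its adjusted p was 0.0167 without replicates 1 and 3 of day 10. DESeq2 called 6 members lower, Slc22a4, Slc22a2, Slc47a1, Slc22a8, Slc22a28 and Slc22a22 (against 9% of all genes), and edgeR with the Y-linked covariate 5, Slc22a4, Slc22a2, Slc47a1, Slc22a28 and Slc22a30 (against 2.59%). At an unadjusted p under 0.05, 14 members were lower at day 10 (against 14.4% of all genes) and 4 higher (against 17.9%). Slc22a2 came next by adjusted p in the edgeR fit, and its log2 fold change was -1.57 (SE 0.269; adjusted p = 0.0115 by edgeR and 1.16e-06 by DESeq2). In Fh1+/+ kidneys 0 of 38 members passed between the days by edgeR (against 0% of all genes), with 288 of all genes up and 287 down at p under 0.05 before adjustment, and for Slc22a4 the log2 fold change was -0.005 (adjusted p = 0.997). The comparisons share libraries, so their values are given side by side and not compared.

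The largest differences among the transporters went with the Y-linked transcripts. Several carriers of these families are known to differ between male and female mouse kidneys. In a fit over all 20 libraries with genotype, day and their interaction, 18 of 41 tested members changed with their level by edgeR at an adjusted p under 0.01 (against 11.7% of all genes), 13 with higher values where the transcripts were present (against 6.98%) and 5 with lower (against 4.75%). DESeq2 called 19 (against 17% of all genes). Slco1a1 had 38.3 to 727 CPM in the 12 libraries with Y-linked transcripts, against 0.0499 to 6.66 CPM in the 8 without, a 139-fold difference between the median levels of the transcripts (adjusted p = 8.78e-06). Slc22a30 was 16.8-fold and Slc22a28 11.0-fold higher with them (adjusted p = 4.88e-09 and 1.85e-07). Slco3a1 had 177 to 401 CPM, against 91.6 to 149 CPM, and Slc22a12 had 1432 to 2504 CPM, against 680 to 1252 CPM, and for both the sets did not overlap over the 20 libraries. Slco4c1 had 2.31 to 10.5 CPM, against 0.123 to 2.55 CPM, and the apical pump Abcc2 214 to 325 CPM, against 141 to 243.5 CPM, overlapping over some libraries. The pair that handles cations together, Slc22a2 and Slc47a1, was 1.95-fold and 1.74-fold higher.

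**Figure D4:**
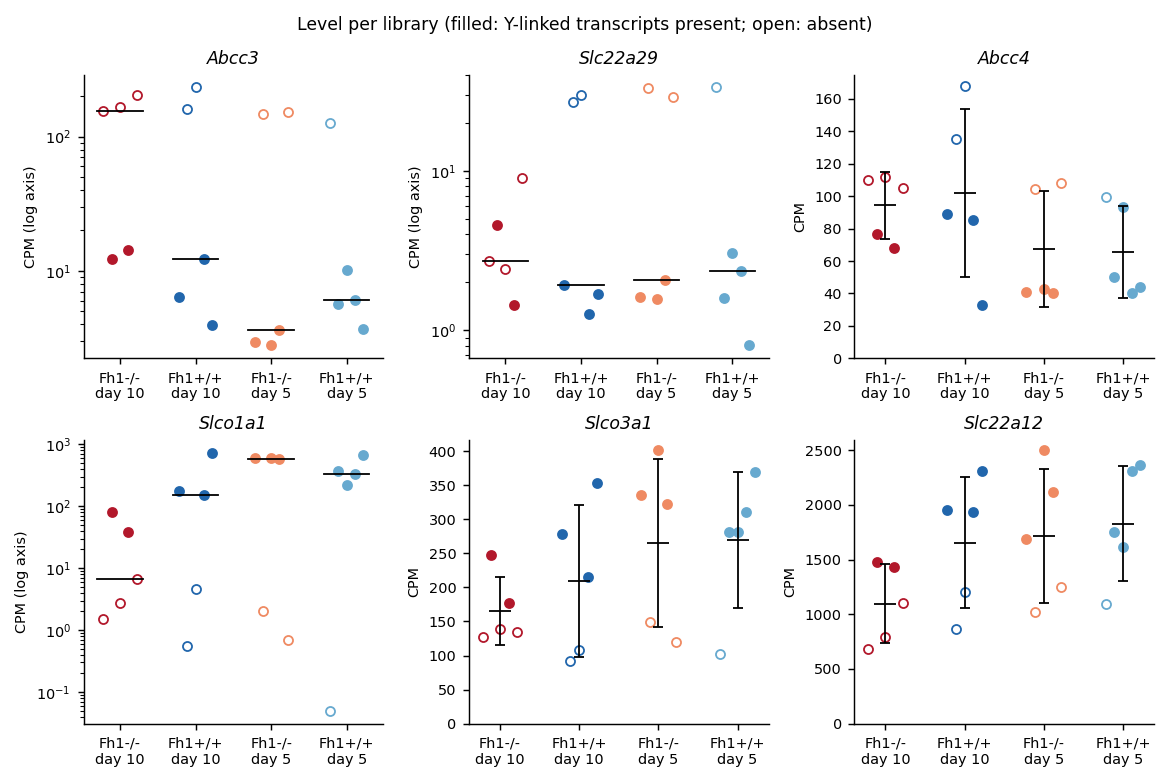
CPM of 6 members in each library by genotype and day, drawn as filled points where Y-linked transcripts were present and open points where they were absent (log axes as labelled; bars are mean and SD, lines on log axes are medians). Open points of Abcc3 lay at 125 CPM or more and filled points at 14.4 CPM or less.

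The efflux pump Abcc3 went the other way. It had 2.79 to 14.4 CPM in the 12 libraries with Y-linked transcripts, against 125 to 232 CPM in the 8 without, 24.2-fold lower (adjusted p = 9.41e-10, the smallest of all members). Fh1-/- libraries of day 10 with the transcripts had 12.4 and 14.4 CPM of it, the 2 highest of the 12, with Fh1+/+ day 10 replicate 4 close below at 12.2 CPM. Abcc4 had 32.8 to 93.4 CPM, against 99.4 to 168 CPM, which did not overlap either (1.99-fold lower, adjusted p = 0.000665), and Slc22a29 was 9.73-fold lower (adjusted p = 4.09e-05), opposite to its neighbours Slc22a28 and Slc22a30. Slco2a1 and Slc22a23 were 1.47-fold and 1.57-fold lower. In Slc22a29 28.7% of the exonic 50-base stretches were shared with other genes. Abcc5, Slc22a5 and Abcc10 had slopes near 0 (1.01-fold, 1.00-fold and 1.03-fold; adjusted p = 0.958, 0.995 and 0.79). Among Fh1-/- libraries alone 5 of 38 tested members passed, Abcc3, Abcc4, Slc22a28, Slc22a30 and Slco1a1 (against 1.52% of all genes), and among Fh1+/+ libraries alone 16 of 38 did (against 6.25%); a difference of the slopes between genotypes was not tested.

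**Figure D5:**
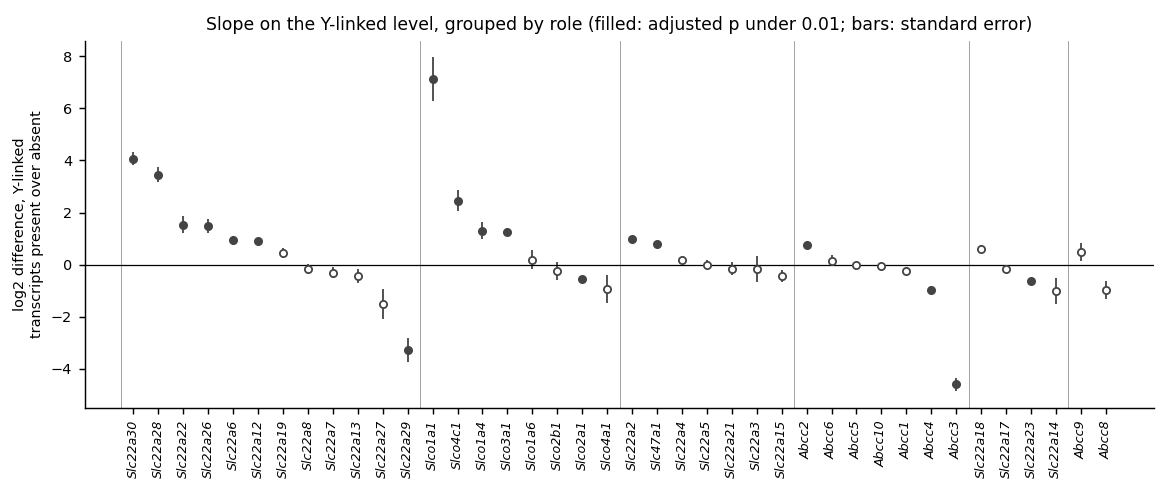
Log2 difference between the median levels of libraries with and without Y-linked transcripts for members tested, from the slope of the edgeR fit over all 20 libraries, grouped by role; bars are standard errors and filled points had an adjusted p under 0.01. Slco1a1 lay highest at 7.12 and Abcc3 lowest at -4.60.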

How the data were processed

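Deposited raw counts per gene symbol of 20 libraries were used. Per the labels and the study's methods, the authors prepared stranded poly(A) libraries (TruSeq), aligned reads to GRCm38 with STAR 2.6.0c, removed adapters and low mapping quality, and counted reads with Rsubread on GENCODE; whether counting used strand was not stated; overlapping genes on the other strand (Nrxn2 over Slc22a12) may share reads. Counts were tested with edgeR 4.0.16 (quasi-likelihood test, TMM scaling, its filter on low counts, Benjamini-Hochberg adjustment over all genes tested; R 4.3.3), with separate fits for genotype at each day and for day in each genotype, and all 20 libraries for the interaction and the Y-linked level (log2 of the summed CPM of Ddx3y, Eif2s3y, Kdm5d and Uty plus 0.5). A gene passed at an adjusted p under 0.01 and an absolute log2 fold change over 0.58; the Y-linked slope had no fold limit. DESeq2 1.42.0 and limma 3.58.1 were alternatives, beside other scaling, filters, thresholds, a replicate block and each library left out. RPKM used merged exon lengths. Replicates 1 and 3 of Fh1-/- at day 10 were left out together, and genotypes fitted alone, as alternatives chosen after seeing the data. Scripts were tested on simulated data. The members and lists were chosen with earlier results of these data known. Values are named for members with the lowest p by comparison, those called, and the most abundant of each class. Library pairs within a group differed by more than sampling noise (chi-square per degree of freedom 7.85 to 397 over 40 pairs). The most alike pair, at 7.85, was Fh1-/- day 10 replicates 1 and 3, the libraries that stood apart. 1 member is counted among the genes tested and not reported here by itself.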

Additional observations from a re-analysis of the deposited data

Results flagged for a closer look

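In 11 of 124 groups of 5 libraries (8.87%, 31 members in 4 groups), 1 library lay far from the other 4. The rule flags about 1 in 20 groups of independent, normally spread values. These groups mixed libraries with and without Y-linked transcripts and the members shared libraries, so the share cannot be set against that rate. In Fh1-/- kidneys of day 10, replicate 2 had 451 CPM of Slc47a1 (others 202 to 245), 232 CPM of Slc22a2 (137 to 158) and 22.5 CPM of Slc22a28 (0.426 to 6.00), and replicate 5 had 141 CPM of Abcc2 (239 to 256). In Fh1+/+ kidneys of day 10, replicate 5 had 727 CPM of Slco1a1 (0.553 to 175) and replicate 3 had 58.4 CPM of Slc22a17 (35.0 to 40.7). In Fh1-/- kidneys of day 5, replicate 2 had 16.3 CPM of Abcc6 (10.8 to 11.6). In Fh1+/+ kidneys of day 5, replicate 1, the only one of that group without Y-linked transcripts, had 125 CPM of Abcc3 (3.69 to 10.2), 33.3 CPM of Slc22a29 (0.803 to 3.05) and 145 CPM of Abcc2 (263 to 291), and replicate 3 had 66.6 CPM of Slco4a1 (8.46 to 18.0).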

How the results depend on the processing

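Over 58 results and 1452 settings, 1367 kept direction and side of the threshold, 44 no longer passed, 29 newly passed and 12 turned direction. Outside the Y-linked slope, only Slc22a4 between days in Fh1-/- kidneys passed in the main edgeR fit, and it no longer passed in 11 of 21 settings. The other results outside the slope had no call to lose, so keeping their side of the threshold says little about them. For the counts below the cause was not tested. At day 10, 0 members were called, 2 by DESeq2, 1 at an adjusted p under 0.05 with no fold limit and 0 to 1 with a library left out. Of all genes 8 were called, 796 by DESeq2, 13 by library totals, 16 with no filter, 3 with a filter of 1 CPM in 5 libraries, 406 at 0.05, 20 with the Y-linked covariate, 15 by limma-voom, 2 without replicates 1 and 3, and 0 to 235 with a library left out, the most without Fh1-/- replicate 2. At day 5, 5 genes were called, 31 by DESeq2, 3 by totals, 9 at 0.05, 8 with the covariate and 2 to 4 with a library left out. For the interaction 0 members were called, 1 by DESeq2, 1 by totals, 1 at 0.05, 3 with the covariate and 0 to 1 with a library left out; of all genes 5, 271 by DESeq2, 12 by totals, 10 with no filter, 11 at 1 CPM, 161 at 0.05, 94 with the covariate, 9 by limma-voom, 3 without replicates 1 and 3, and 3 to 296 with a library left out.

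Between days in Fh1-/- kidneys 1 member was called, 6 by DESeq2, 5 at 0.05, 5 with the covariate, 4 by limma-voom, 0 without replicates 1 and 3, and 0 to 6 with a library left out, the 6 without day 10 replicate 2; of all genes 82, 1281 by DESeq2, 1653 at 0.05, 369 with the covariate, 484 by limma-voom, 21 without replicates 1 and 3, and 0 to 774 with a library left out. Abcc1 there turned from -0.053 to 0.149 by limma-voom, 0.105 without replicates 1 and 3, and between -0.159 and 0.058 with a library left out. Slc22a4 between days in Fh1+/+ kidneys turned from -0.005 to 0.051 by totals, 0.045 with the covariate, and between -0.082 and 0.054 with a library left out. For the Y-linked slope 18 members were called, 5 in Fh1-/- libraries alone and 16 to 19 with a library left out; of all genes 1753, 3212 without replicates 1 and 3, 217 in Fh1-/- and 906 in Fh1+/+ libraries alone, and 1329 to 2015 with a library left out.

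Over 20 same-numbered pairs the correlation of deviations from the group mean ran from -0.51 to 0.33. Of these, 4 were over 0.1 and 3 were the best of their library. The deviations were not adjusted for the Y-linked level, in which many same-numbered libraries differed. Whether replicate numbers pair the libraries therefore cannot be told from these values. The study used littermate controls, and the labels do not say which libraries came from littermates. With the replicate block 0 genes were called at day 10 and at day 5, 2 for the interaction and 0 between days in Fh1-/- kidneys, where 0 members were called and Slc22a4 had an adjusted p of 0.0597.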

Other observations

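DESeq2 called 2 of 9 tested targets of the antioxidant regulator NRF2 at day 10, Srxn1 and Hmox1 (against 5.54% of all genes). Both were highest in the 2 Fh1-/- libraries that stood apart. Srxn1, which repairs oxidised peroxiredoxins, had 908, 112, 904, 118 and 137 CPM in Fh1-/- libraries of day 10, against 86.9, 84.0, 91.4, 78.0 and 79.9 CPM in Fh1+/+ libraries; every Fh1-/- library was higher (log2 fold change 2.37; adjusted p = 0.071 by edgeR and 0.00168 by DESeq2). Hmox1, the heme-degrading enzyme, had 150.2, 49.5, 168, 56.9 and 53.8 CPM, against 36.3, 18.0, 19.1, 40.4 and 45.6 CPM, again with no overlap (log2 fold change 1.58; adjusted p = 0.0708 by edgeR and 0.00452 by DESeq2).

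Among nuclear receptors that are known to act on transporter genes, the fatty acid receptor Ppara had 212, 231, 202, 256 and 212.5 CPM in Fh1-/- libraries, against 157, 137, 209.5, 114 and 130.1 CPM in Fh1+/+ libraries (log2 fold change 0.57; adjusted p = 0.0755, edgeR), overlapping in 1 Fh1+/+ library. The xenobiotic receptor Nr1i2 (Pxr) had 24.7, 6.72, 26.3, 9.52 and 13.5 CPM, against 3.67, 7.10, 12.4, 3.29 and 3.20 CPM (log2 fold change 1.43, adjusted p = 0.107). Neither receptor passed. Nr1i2 also went downward with the Y-linked transcripts (edgeR slope, adjusted p = 2.61e-05). With their level as a covariate its log2 fold change was 1.24 (adjusted p = 0.0251, edgeR). Nr3c1, the glucocorticoid receptor, had 53.1 to 79.8 CPM, against 71.7 to 93.3 CPM (log2 fold change -0.43; adjusted p = 0.0864).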
